A study of Homo sapiens with 9 samples.

Results

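The regions described here are 257 stretches of the genome at which NKX2-1 had a peak in the lung adenocarcinoma lines H1819 and H2087 and none in H3122. They were chosen by the presence or absence of peaks. Overlapping peaks (1 bp or more) of the 4 NKX2-1 lists on chromosomes 1 to 22 and X were merged into 59679 regions. Regions holding an H1819 and an H2087 peak, and no peak of either H3122 list, were kept. The 257 made up 0.431% of all merged regions, 1.94% of the 13256 with an H1819 peak and 1.84% of the 13997 with an H2087 peak.

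The study mapped chromatin occupancy by ChIP-seq in NCI-H3122, NCI-H1819 and NCI-H2087, established lines grown in the same medium, with no treatment named, and all given by the submitters as carrying an amplified NKX2-1. NKX2-1 was precipitated with 1 antibody in every line, giving 2 peak lists from H3122 (replicates 1 and 2, which no label gives as separate cultures) and 1 each from H1819 and H2087. FOXA1 was precipitated in H3122 and gave 1 list. Each peak carries the authors' score, a value of unstated scale that was ranked only within its own list. How deeply each library was sequenced is unknown. Because H1819 and H2087 had 1 list each, intervals over regions cover counting error only and do not speak for other cultures.

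NKX2-1 (TTF-1) is a homeodomain transcription factor that specifies lung and thyroid epithelium and keeps alveolar and airway genes switched on. It acts as a lineage survival factor in lung adenocarcinomas that amplify its gene. FOXA1 is a forkhead pioneer factor that can bind closed chromatin and often shares regulatory elements with NKX2-1 in lung epithelium. A factor bound in some lines and not in others marks elements whose use differs between tumours of one lineage. A missing peak can also mean a signal below the calling limit.

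Regions shared by H1819 and H2087 usually had an H3122 peak as well, and the 257 were the exception. Of 3011 regions with both an H1819 and an H2087 peak, 962 were in both H3122 lists, 1780 in replicate 2 only and 12 in replicate 1 only. The remaining 257 were 8.54% (95% Wilson interval 7.59 to 9.59). By comparison 58.3% (57.3 to 59.2) of H1819 regions without an H2087 peak lacked an H3122 peak, and 39.5% (38.6 to 40.4) of H2087 regions without an H1819 peak did. These shares rest on the values that chose the regions and are given without a test.

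How many regions qualified depended on the lists and on their cut-offs. H3122 replicate 2 held 48071 peaks and replicate 1 held 7469. With replicate 1 left out, 269 regions met the rule, and with replicate 2 left out 2030 did. With scores of at least 100 in every list the number was 153, and with lists of equal length 481. The 1780 regions that only replicate 2 removed scored 60.07 to 3100 in that list, with a median of 243.6 against 137 over the whole list. Of them, 187 scored under 100 and 48 under 70, close to the list's lowest score of 60.

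Just outside the rule lay regions whose only H3122 peak scored near the minimum of its list, selected on that score. For replicate 1, whose list starts at 50, these were in 1q21.3 (chromosome 1 from 153175429 to 153175976 in hg18), 19p13.3, 17p13.2 and 10q25.2, with scores of 53.28, 54.62, 57.79 and 59.82. For replicate 2, whose list starts at 60, it was a region in 18p11.22 with a score of 60.07. Just inside it, the nearest H3122 peak lay 31 bp away in 17q24.1 (chromosome 17 from 60138522 to 60138947) and scored 128. The gaps in 7q21.3, 1p36.11, 1p21.3 and 8q24.3 were 72, 114, 135 and 149 bp, beside H3122 peaks scoring 152, 264, 259 and 96.77. In all, 45 of the 257 had a replicate 2 peak within 1000 bp, and 212 kept the rule when such a clearance was asked for. The 45 were 17.5% (13.4 to 22.6), against 15.2% (14.2 to 16.3) of H2087-only and 7.90% (7.25 to 8.62) of H1819-only regions.

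In their own lists the peaks were of middling rank. H1819 scores ran from 60.09 to 1250, with a median of 107 at percentile 41.6 of the H1819 list. H2087 scores ran from 60.47 to 3100, with a median of 136 at percentile 46.3. Scores under 100 were found for 119 of the H1819 peaks (46.3%) and 88 of the H2087 peaks (34.2%). Over the whole lists, a score of 99.65 stood at percentile 38.0 in H1819 and one of 99.87 at percentile 32.2 in H2087. The H2087 share was thus near that of its whole list. Scores under 100 made up 42.3% of H1819-only and 48.1% of H2087-only regions. Where H3122 also had a peak, they made up 34.7% in H1819 and 15.7% in H2087. In the top 10% of their lists lay 17 H1819 peaks (6.61%) and 20 H2087 peaks (7.78%), against 8.01% of H1819-only and 3.83% of H2087-only regions. Regions that also had an H3122 peak stood at median percentiles of 52.2 in H1819 and 68.7 in H2087. Regions of 1 list alone stood at 46.0 for H1819 and 34.1 for H2087. The H1819 peaks of the 257 therefore ranked slightly below those found in H1819 only, and their H2087 peaks ranked above those found in H2087 only.

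The share of shared regions that lacked H3122 fell with rank. When the 3011 were ordered by the mean of their H1819 and H2087 percentiles, it was 15.4% (12.8 to 18.5) in the lowest 20% and 4.32% (2.96 to 6.25) in the highest 20%.

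**Figure D1:**
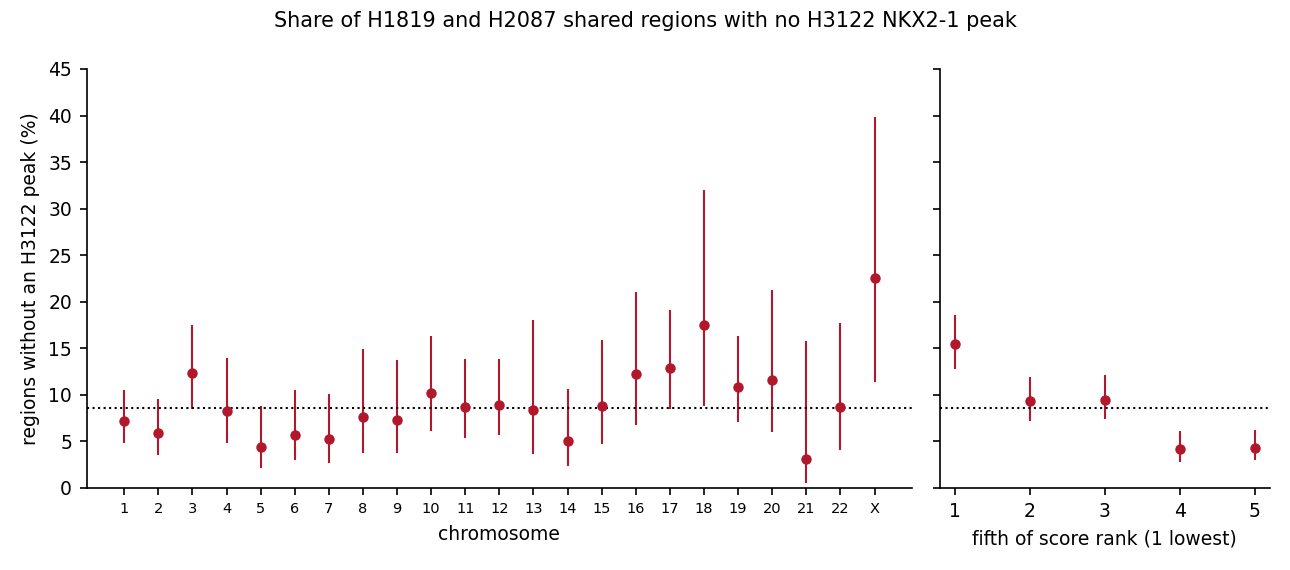
Share of the 3011 regions with H1819 and H2087 peaks that had no H3122 NKX2-1 peak (y axis, %), by chromosome (left) and by 20% bins of mean score percentile from the lowest (1) to the highest (5; right). Points are shares, bars 95% Wilson intervals, and the dotted line is the 8.54% of all; the share falls from 15.4% to 4.32% with rank, and chromosome X has the highest share at 22.6%.

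H1819 and H2087 ranked the same regions differently. Across the 257, Spearman's rho between the percentiles in the 2 lists was 0.19, against 0.33 across the 2754 shared regions with an H3122 peak. Both values are descriptions, since regions are not replicates and a common minimum score bounds both lists. The median gap between a region's 2 percentiles was 25.1 points, against 21.9 across those 2754. Both peaks were above the median of their list at 56 of the 257 and at or below it at 87. Of the 2754, 1135 were above both medians and 524 at or below both. Among the 257, 17 reached the top 10% in H1819 and 20 in H2087, which made 36 in at least 1 list and 1 in both. Of the 2754, 120 reached it in both.

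**Figure D2:**
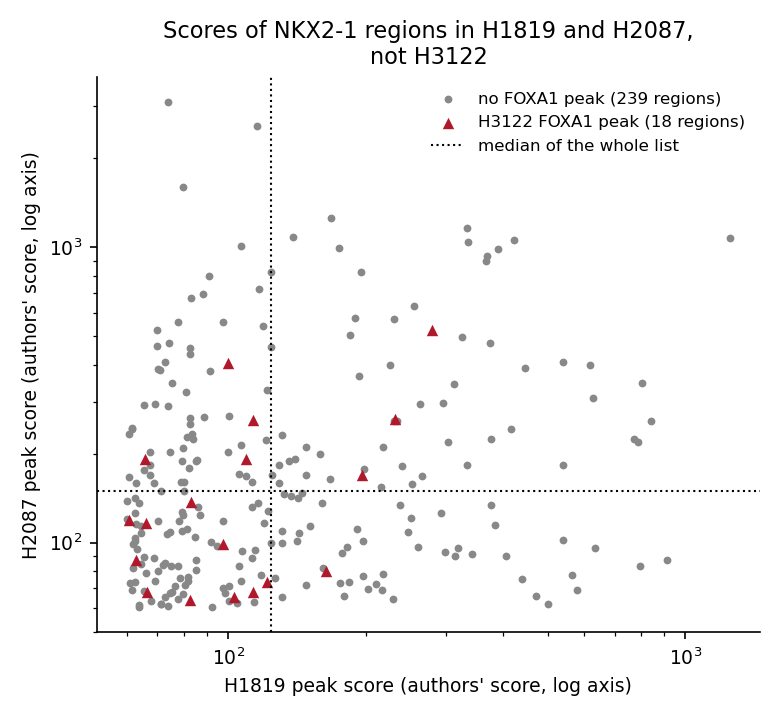
H1819 score (x axis) against H2087 score (y axis) of the 257 regions, both the authors' peak scores on log axes, with triangles for the 18 regions that overlap an H3122 FOXA1 peak. Dotted lines mark the median score of each whole list; points lie on every side of both lines, with 87 regions at or below both medians and 1 region in the top 10% of both lists.

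The region in the top 10% of both lists led the ranking by mean percentile. It lay in 2p23.2, on chromosome 2 from 28034797 to 28035951, and scored 1250 in H1819 and 1072 in H2087. The nearest H3122 replicate 2 peak was 2779 bp away. Within 100 kb of the region that list held 5 peaks, so H3122 had NKX2-1 peaks around a site where it had none.

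The next 6 ranked higher in H2087 than in H1819. The second, in 1q42.12 (chromosome 1 from 225068985 to 225070156), scored 422 in H1819 and 1059 in H2087. The third, in 2q32.2 (chromosome 2 from 191413089 to 191415235), was the widest of all 257 at 2147 bp and scored 388 and 984. Regions in 1q42.2, 18q11.2, 5q35.1 and 2p25.1 came next, with H1819 scores of 333 to 369 and H2087 scores of 899 to 1165. The 3 after these had the higher percentile in H1819. They were in 18q21.31 (619 and 400), Xq13.2 (805 and 348) and 20q13.13 (541 and 410).

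The other 10 of the 20 highest-ranking regions scored 195 to 841 in H1819 and 225 to 821 in H2087. They were in 15q24.1, 1p22.3, 4q28.2, 14q23.3, 10p11.23, 13q12.13, 10q25.3, 12q24.31, Xq23 and 15q23. Of all 20, 1 overlapped an H3122 FOXA1 peak, the region in 13q12.13, where FOXA1 scored 92.99. The 20 lay 579 to 426066 bp from the nearest H3122 NKX2-1 peak. Replicate 2 had 0 to 14 peaks within 100 kb of them.

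**Figure D3:**
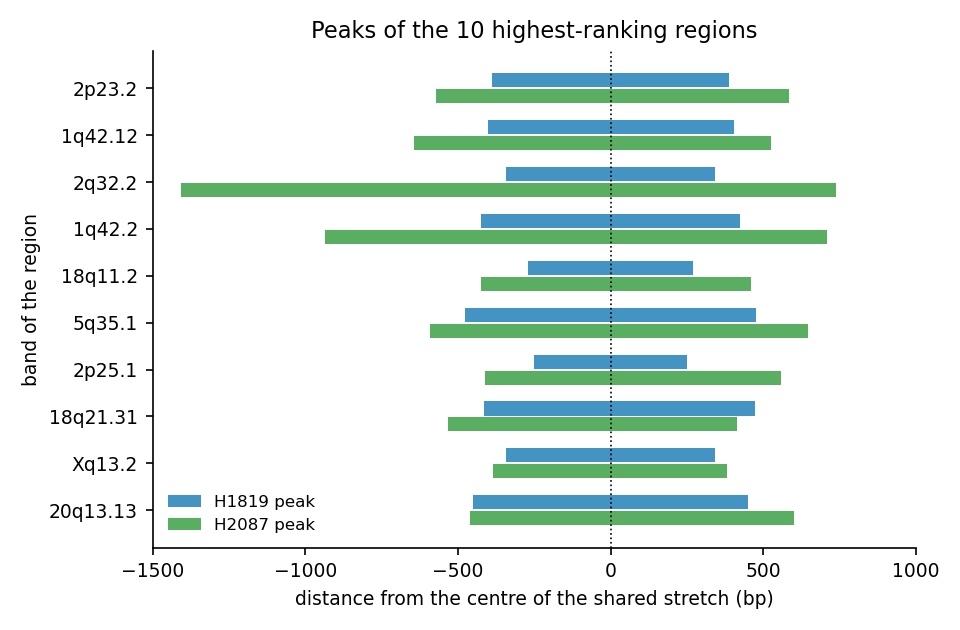
Extent of the H1819 peak and the H2087 peak, drawn to scale, at the 10 regions with the highest mean percentile, labelled by band (y axis), with the centre of the stretch they share at 0 (x axis, bp). The H2087 peak spans the H1819 peak at 9 of the 10; in 2q32.2, which had 2 H1819 peaks, only the higher-scoring one is drawn.

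Some regions in the top 10% of one list ranked far lower in the other. Among regions in the top 10% of either list, the widest gap in favour of H1819 was in 16q21 (chromosome 16 from 63025942 to 63026701), with a score of 502 at percentile 91.2 in H1819 and 62.06 at percentile 3.62 in H2087. Xq23, 3q24, 17q24.1 and 6p21.2 followed, with H1819 scores of 472 to 795 and H2087 scores of 65.83 to 83.29. In the other direction and within the same limit, the region in 17p13.2 (chromosome 17 from 4079429 to 4080844) scored 73.69 in H1819 and 3100 in H2087. Within that limit regions in 17q21.2, 19q13.42, 2q37.1 and 16q13 followed, with 79.43 to 90.64 in H1819 and 675 to 1596 in H2087.

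The rule requires an H1819 and an H2087 peak to meet in 1 merged region, so their overlap is given as a description. Merged regions were 293 to 2147 bp wide, with a median of 664, and H1819 and H2087 peaks shared 38 to 988 bp, with a median of 358. Peak midpoints were a median of 76.5 bp apart, and 255 bp at the 90th percentile. At 112 regions the H1819 peak lay inside the H2087 peak, at 35 the reverse, and at 110 the peaks overlapped in part. The H2087 peak was the wider at 176. The smallest shared stretches, of 38, 47 and 64 bp, were in 4q27, 1q22 and 2q31.1. Wider H2087 peaks were not particular to these regions. Across the 2754 shared regions with an H3122 peak, the H2087 peak was the wider at 2223. There the H1819 peak lay inside it at 1587, and the reverse held at 226. Over the whole lists the median peak width was 592 bp in H2087 and 479 bp in H1819.

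FOXA1 was rare at these regions, as at other regions without an H3122 NKX2-1 peak. An H3122 FOXA1 peak overlapped 18 of the 257, or 7.0% (4.48 to 10.8), while 39.7% of all merged NKX2-1 regions had one. FOXA1 was measured in its own library and did not enter the choice of regions. The share was 6.08% (5.50 to 6.71) at the 5971 regions found in H1819 only and 8.32% (7.53 to 9.18) at the 4339 found in H2087 only. The difference from H1819-only regions was 0.92 points (Newcombe 95% interval -1.68 to 4.76), and that from H2087-only regions was -1.32 points (-3.99 to 2.56). Both intervals include 0, and each also allows a difference of several points.

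Regions where H3122 had an NKX2-1 peak carried FOXA1 far more often. Of the 2754 regions shared by H1819, H2087 and at least 1 H3122 list, 44.3% (42.4 to 46.1) had FOXA1. The 257 were 37.3 points lower (-40.4 to -33.04). This comparison is between regions split on NKX2-1 in the same line that FOXA1 was measured in. Without replicate 2, the share at the then 2030 regions was 33.8%, so the low share depends on the longer H3122 list. H1819-only and H2087-only regions were then redrawn without replicate 2 too, and their shares also differed from those above. Against these redrawn classes the 2030 stood 12.03 and 7.68 points higher. The FOXA1 share of the 257 was 3.89% when FOXA1 peaks had to score at least 100. When NKX2-1 peaks did, it was 11.1% of 153 regions. H3122 peaks under 100 were dropped too, so these 153 include regions outside the 257.

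FOXA1 peaks lay within 500 bp of another 14 regions without touching them. Together with the 18 that overlapped, 32 of the 257 had FOXA1 within this reach, 12.5%, against 43.0% of all merged regions. The share at H1819-only regions was 8.63%, a difference of 3.83 points (0.26 to 8.47). With this wider reach, chosen after the data were seen, the interval left out 0. Against H2087-only regions the difference was -0.25 points (-3.89 to 4.45).

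**Figure D4:**
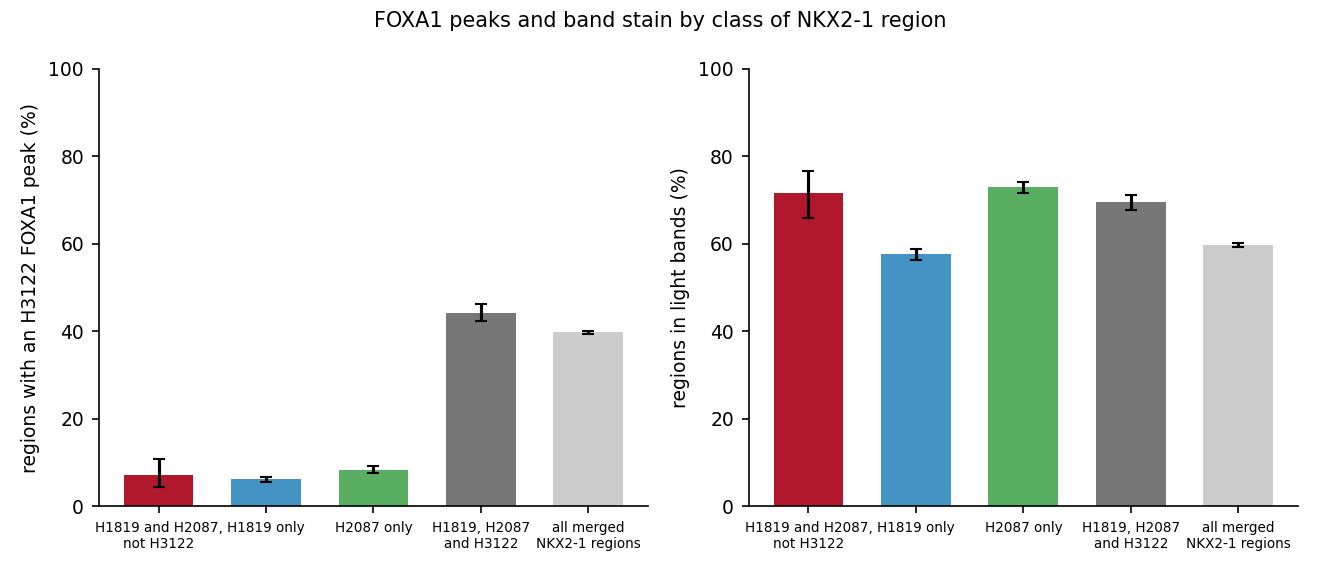
Percentage of regions with an H3122 FOXA1 peak (left) and in light bands, meaning unstained or lightest stained by Giemsa (right), for the 257 regions, for regions of H1819 only, of H2087 only and of H1819, H2087 and H3122, and for all merged NKX2-1 regions. Bars are shares with 95% Wilson intervals; FOXA1 is at 7.0% in the 257 and 44.3% where H3122 also had NKX2-1, and light bands hold 71.6% of the 257 and 57.6% of H1819-only regions.

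At the 18 regions with FOXA1, the NKX2-1 score was under 100 at 9 in H1819 and at 8 in H2087. Their FOXA1 scores ran from 63.74 to 524, with a median of 149.7 against 139 over the whole FOXA1 list and 239 at shared regions with an H3122 NKX2-1 peak. FOXA1 covered the midpoint of 16 of the 18. The highest was in 10q23.31 (chromosome 10 from 92670773 to 92671474), with a FOXA1 score of 524 and NKX2-1 scores of 196 in H1819 and 169 in H2087. In 12q24.31, 14q32.31, 3q27.3 and Xq12 FOXA1 scored 413, 369, 348 and 279. Among the 257 ranked by mean percentile, 6 of the upper 128 had FOXA1 (4.69%, 2.17 to 9.85) and 12 of the lower 129 (9.30%, 5.40 to 15.6), intervals that overlap.

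H3122 NKX2-1 peaks were usually not far from these regions. Replicate 2 held 48061 peaks on chromosomes 1 to 22 and X, over 3023 Mb. How near its peaks lie to random positions was not tested. The median distance to the nearest replicate 2 peak was 11821 bp, and 247 of the 257 had one within 100 kb. The other 10, 3.89%, had none, against 11.2% of H1819-only and 4.36% of H2087-only regions. The median distance was 17282 bp for H1819-only and 9532 bp for H2087-only regions. For FOXA1 the medians were 18050 bp for the 257, 18614 bp for H1819-only and 14265 bp for H2087-only regions. Within 1 Mb on either side, replicate 2 had 1 to 78 peaks, with a median of 43, the same median as around H2087-only regions.

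**Figure D5:**
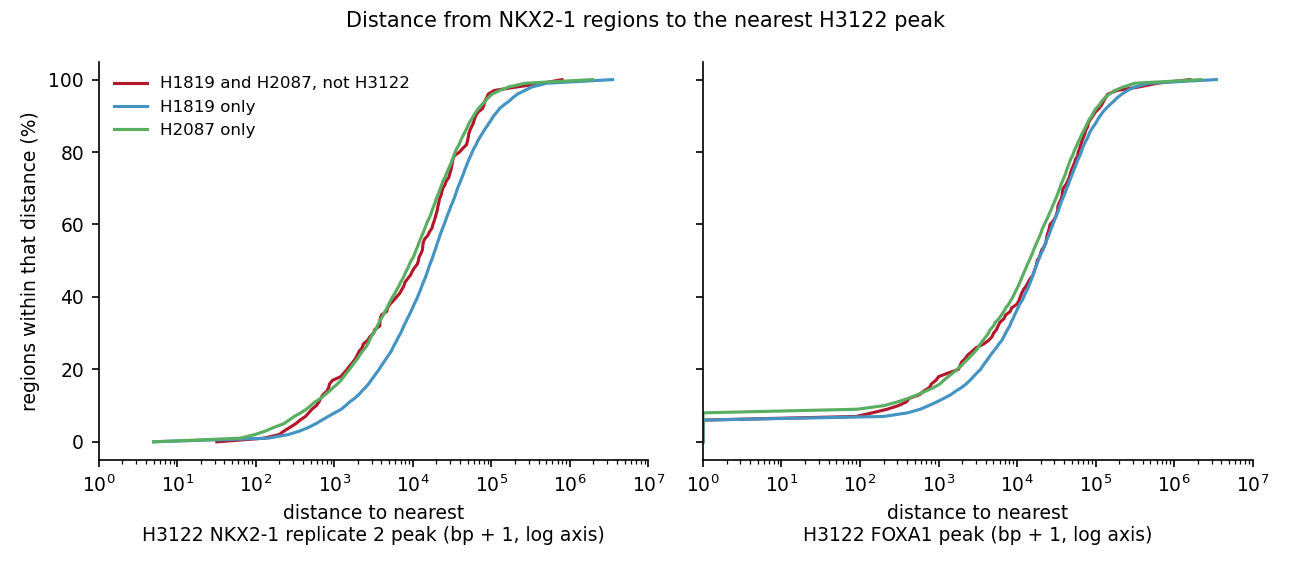
Cumulative percentage of regions (y axis) within a given distance (x axis, bp + 1, log axis) of the nearest H3122 NKX2-1 replicate 2 peak (left) and H3122 FOXA1 peak (right), for the 257 regions and for regions of H1819 only and H2087 only. To NKX2-1 the 257 follow the H2087-only curve, with medians of 11821 and 9532 bp, and the H1819-only curve lies at longer distances with a median of 17282 bp.

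A few regions stood in stretches without H3122 peaks. The farthest from any was in 20p11.1, at the centromere (chromosome 20 from 26137665 to 26138674), 511816 bp from the nearest, with scores of 319 in H1819 and 95.62 in H2087. The region in Xq13.2 (chromosome X from 73053698 to 73054462) was 426066 bp away, and replicate 2 had 1 peak within 1 Mb of it. Regions in 15q21.1, 9p21.2 and 1q32.2 were 277132, 264865 and 222997 bp away, with H2087 scores of 723, 824 and 406 and H1819 scores of 117, 124 and 99.65. In 1q32.2 FOXA1 had a peak scoring 204, so H3122 chromatin gave a FOXA1 peak there and no NKX2-1 peak.

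The regions lay mostly in lightly staining chromosome bands, which are known to be richer in genes. Bands that are unstained or in the lightest stained class held 184 of the 257, or 71.6% (65.8 to 76.8), against 59.7% of all merged regions. The share was 57.6% (56.4 to 58.9) for H1819-only regions, a difference of 13.95 points (8.02 to 19.3). It was 72.9% for H2087-only regions (-1.30 points, -7.25 to 4.03) and 69.5% for shared regions with an H3122 peak (2.13 points, -3.91 to 7.58). The darkest bands held 13 of the 257, 5.06%, against 14.2% of H1819-only and 5.02% of H2087-only regions. With unstained bands alone, the difference from H1819-only regions was 7.02 points (0.78 to 13.1) and that from H2087-only regions -6.54 points (-12.8 to -0.40), both intervals that leave out 0.

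Every chromosome from 1 to 22 and X held at least 1 of the regions, with most on chromosomes 3 (25), 1 (23), 17 (20) and 19 (19). Per megabase chromosomes 19 and 17 led, at 0.298 and 0.254 against 0.0850 over all. All H1819 and H2087 peaks were dense there too. They stood at 1.67 and 2.24 times the mean of each list on chromosome 19, and 1.36 and 1.97 on chromosome 17. Of shared regions, 10.9% (7.06 to 16.3) on chromosome 19 and 12.9% (8.51 to 19.1) on chromosome 17 lacked H3122, intervals that include 8.54%. As a share of the regions that H1819 and H2087 had in common, chromosome X stood highest, with 7 of 31 (22.6%, 11.4 to 39.8), followed by chromosome 18 with 7 of 40 (17.5%, 8.75 to 31.95). Of 23 chromosomes these 2 had a lower bound above the 8.54% of all regions, and none had an upper bound below it. The intervals are not adjusted for the number of chromosomes. The shares rest on the values that chose the regions, so they are a description and not a test.

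Among 41 chromosome arms the lower bound was above 8.54% in 4, named here after their values were seen. They were Xq with 6 of 15 (40.0%, 19.8 to 64.3), 18q with 5 of 23, 16q with 7 of 35 and 3p with 12 of 78. The intervals are not adjusted for the number of arms, and these shares too are a description. On the whole of Xq the peak density was 0.339 (replicate 1), 0.475 (replicate 2), 0.287 (H1819) and 0.268 (H2087) times the mean of each list. The bands of the Xq regions were taken because they hold regions without an H3122 peak. A lower H3122 density there is favoured by the rule, and the values are a description. In Xq13.2 replicate 2 stood at 0.039 (1 peak), against 0.280 in H1819 (2 peaks) and 0.393 in H2087 (3 peaks). In Xq12 it stood at 0.097 (4 peaks), against 0.431 and 0.403 (5 peaks each). In Xq23 and Xq26.3 it stood at 0.529 and 0.497, between H1819 and H2087. Copy number was not measured here.

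Within chromosomes the regions were scattered. They fell in 188 bands, and of those of at least 1 Mb 139 held 1 region, 32 held 2 and 14 held 3 or more. Bands 12q24.31 and 3p21.31 had the most, 6 each, out of 26 and 21 shared regions. In 12q24.31 peak density was 2.95 (H1819), 3.18 (H2087) and 1.65 (H3122 replicate 2) times the mean of each list. In 3p21.31 it was 1.97, 2.63 and 1.30 times. Bands 19q13.43, 17p11.2 and 19p13.3 held 4 each. The bands were picked by their number of regions, which favours H1819 and H2087 peaks, so the densities are a description. Per megabase, 19q13.43 was highest at 1.66, where density was 2.14 times the mean in H1819, 2.87 in H2087 and 0.939 in replicate 2, and 17q21.2, 3q27.2, 19q13.42 and Xq13.2 followed. In Xq13.2 both shared regions lacked H3122, whose replicate 2 had 1 peak in the whole band.

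The median distance from a region to the next of the 257 was 2325748 bp, and no run of 3 or more lay within 100 kb steps. There were 11 pairs within 100 kb. The closest pair, 592 bp apart, was in 10q25.3 (chromosome 10 from 116384127 to 116385030 and from 116385623 to 116386425), and the second of them was among the 20 highest-ranking regions with scores of 841 in H1819 and 258 in H2087. Pairs in 5q31.3, 10q23.31 and 19q13.42 were 2138, 8454 and 9627 bp apart.

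Band 14q13.3, which holds the NKX2-1 gene and so the locus amplified in these lines, contained 1 of the 257. It lay on chromosome 14 from 36052128 to 36053094 and scored 81.12 in H1819 and 227 in H2087, at percentiles 25.3 and 65.3. The H1819 peak was 408 bp wide and lay inside the H2087 peak of 967 bp. The nearest H3122 peaks were 5057 bp away in replicate 2 (score 67.68) and 6736 bp away in replicate 1, and FOXA1 had a peak 5184 bp away. All 4 NKX2-1 lists were dense in the band, at 3.11 (H3122 replicate 1), 2.42 (replicate 2), 2.59 (H1819) and 1.77 (H2087) times the mean of each list. Such densities were not particular to it, with 4.35, 2.50, 2.52 and 6.44 in 11q13.1 in the same order. A part of the amplification in the density of 14q13.3 was not tested.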

How the data were processed

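NKX2-1 peak lists from 4 precipitated libraries and 1 FOXA1 list were used; the 4 input libraries were not analysed here. Bowtie, MACS 1.4.0 and the build hg18 are named in the submitters' processing notes; for thresholds and controls the sources used here give nothing. The score of each peak is the authors' own value, deposited without a stated scale. It was taken for a log-scaled p-value (10 × −log10), because the lowest values were 50 (H3122 replicate 1) and 60, and was ranked only within a list. Coordinates are 1-based.

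Peaks on chromosomes 1 to 22 and X were merged at an overlap of 1 bp, and a region took the highest score of each list. Percentiles are mean ranks. Shares have Wilson and differences Newcombe 95% intervals over regions; matched differences used the Mantel-Haenszel estimate. Bands and Giemsa stain came from circlize 0.4.16 in R 4.3.3, and other steps used Python 3.11.15, pandas 2.3.3 and statsmodels 0.14.6. The code was tested on simulated data. Sequence and gene annotation of hg18 were not used here, so no region is assigned to a gene and no sequence is printed.

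Regions named are the 20 with the highest mean percentile, and 5 each for the largest rank gaps either way within the top 10% of either list, the highest FOXA1 score, the longest and shortest distance to H3122 peaks, the smallest overlap and the lowest H3122 score outside the rule. The 5 bands with most regions, the 5 densest and 14q13.3 were also named. The regions and these rules were chosen with earlier results of these data known.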

Additional observations from a re-analysis of the deposited data

How the results depend on the processing

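The number of regions was 247 to 253 with a stricter or looser overlap rule, 234 and 212 with no H3122 peak within 500 or 1000 bp, and 250 on autosomes. It moved to 153 with scores of at least 100 in every list and to 481 with lists of equal length, settings that also drop H3122 peaks and let in other regions. Leaving out an H3122 replicate gave 269 (without replicate 1) and 2030 (without replicate 2).

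The FOXA1 share of the regions was 12.5% with FOXA1 within 500 bp, 3.89% with FOXA1 scores of at least 100, 11.1% with NKX2-1 scores of at least 100, and 6.69% and 33.8% without H3122 replicate 1 and 2. When a replicate was left out, the H1819-only and H2087-only regions were redrawn in the same way. The difference from H1819-only regions was then 0.58 points without replicate 1 and 12.03 without replicate 2. It was 3.83 points with FOXA1 within 500 bp. The difference from H2087-only regions was -1.58 points without replicate 1 and 7.68 without replicate 2, the latter a change of sign. At matched peak width, score or stain, both FOXA1 differences kept intervals that include 0.

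The excess over H1819-only regions in light bands kept its direction and an interval above 0 in all 7 alternatives tried (7.02 in unstained bands alone to 17.9 points with scores of at least 100), 2 of them (score deciles and autosomes) chosen after the data were seen. The difference from H2087-only regions changed sign with scores of at least 100 (1.88 points) and on autosomes (0.085 points), with intervals that include 0, and was -6.54 points in unstained bands alone. Where the setting only removes peaks or lists, fewer peaks are the change made; for the other settings the cause was not tested. Of 52 alternatives over 8 results, 39 kept a difference's direction and call, kept a count within 1.5 times, or moved a share by less than its interval or a percentile by less than its SD over regions. Planned motif, GC and promoter shares were not run. No list states its sequencing depth, and a missing H3122 peak is one not called, not one shown to be absent.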
